A study of Homo sapiens with 8 samples.

Results

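Antigen presentation by MHC class I was followed through 9 genes in human podocytes with and without overexpression of the kinase LATS2: HLA-B, HLA-C, HLA-E, HLA-F, B2M, TAP1, TAP2, TAPBP and PSMB9. They were chosen by name, and all 9 were found in the gene table of 29004 loci, in 57 rows. Of these rows, 9 lay on the main chromosomes and carried values. The other 48 lay on the 7 alternative haplotype sequences of chromosome 6 and were listed at 0 in both groups, as were all 1190 loci on these sequences. The samples came from AB8/13, an immortalized human podocyte line, in which a stable doxycycline-inducible LATS2 wild-type construct had been introduced with a lentivirus. In 4 samples LATS2 was induced for 8 h with doxycycline at 125 ng/mL (LATS2 OE), and 4 samples of the same line were left untreated. The untreated samples carried the construct as well but received no doxycycline, so the drug and the kinase changed together and cannot be told apart. Poly(A) RNA was sequenced, and the authors' table gives 1 pooled FPKM value per group (a read count scaled to exon length and to the number of mapped fragments). Values of single samples were not analysed here, so no value below has an SD, and no difference was tested. The depth behind each value is unknown.

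MHC class I molecules display peptides from the inside of the cell to cytotoxic T cells and to natural killer cells. A polymorphic heavy chain pairs with beta-2-microglobulin (B2M) in the endoplasmic reticulum. The peptides are cut by the proteasome, whose interferon-induced form contains PSMB9, and are carried across the membrane by the transporter TAP1/TAP2. Tapasin (TAPBP) holds the empty molecule at the transporter until a peptide is bound. Transcription of the heavy chain genes and B2M is driven by a shared promoter module read by RFX factors, NF-Y and the coactivator NLRC5. Kappa B sites and interferon-stimulated response elements, the latter bound by IRF factors, drive class I presentation genes as well. Podocytes are not professional antigen-presenting cells, but like most nucleated cells they carry class I molecules.

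The RefSeq promoter table (build GRCh38.p14) held 9 start sites for 8 of the 9 genes, and HLA-E was without an entry. The 250 bases before the start of HLA-B, HLA-F, B2M, TAP1 and PSMB9 are shown because they cover a classical and a non-classical heavy chain, the light chain, and the neighboring genes for peptide supply. Each is written 5′ to 3′ on the strand of the gene, and capitals mark every match to the searched motifs that lies wholly before the start. HLA-B lies on the minus strand at chr6:31357180-31357429, HLA-F on the plus strand at chr6:29723184-29723433, B2M on the plus strand at chr15:44711267-44711516, TAP1 on the minus strand at chr6:32853705-32853954 and PSMB9 on the plus strand at chr6:32853942-32854191.
HLA-B: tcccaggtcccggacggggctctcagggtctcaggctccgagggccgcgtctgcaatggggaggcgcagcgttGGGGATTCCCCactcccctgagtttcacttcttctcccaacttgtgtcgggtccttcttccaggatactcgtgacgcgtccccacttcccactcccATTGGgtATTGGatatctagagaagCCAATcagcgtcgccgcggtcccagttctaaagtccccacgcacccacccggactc
HLA-F: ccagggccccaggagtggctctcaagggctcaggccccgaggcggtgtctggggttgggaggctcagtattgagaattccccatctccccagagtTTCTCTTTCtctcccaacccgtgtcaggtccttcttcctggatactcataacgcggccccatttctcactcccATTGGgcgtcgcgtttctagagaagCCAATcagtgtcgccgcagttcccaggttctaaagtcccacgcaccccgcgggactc
B2M: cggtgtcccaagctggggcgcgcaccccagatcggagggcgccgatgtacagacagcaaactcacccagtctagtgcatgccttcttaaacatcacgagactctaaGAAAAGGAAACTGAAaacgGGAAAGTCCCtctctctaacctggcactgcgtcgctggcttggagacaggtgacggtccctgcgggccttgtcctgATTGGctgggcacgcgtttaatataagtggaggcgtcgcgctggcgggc
TAP1: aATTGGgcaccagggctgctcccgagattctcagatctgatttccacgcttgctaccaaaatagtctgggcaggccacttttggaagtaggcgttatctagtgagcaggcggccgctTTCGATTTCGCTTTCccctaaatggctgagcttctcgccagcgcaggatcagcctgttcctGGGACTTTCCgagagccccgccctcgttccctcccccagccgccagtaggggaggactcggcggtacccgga
PSMB9: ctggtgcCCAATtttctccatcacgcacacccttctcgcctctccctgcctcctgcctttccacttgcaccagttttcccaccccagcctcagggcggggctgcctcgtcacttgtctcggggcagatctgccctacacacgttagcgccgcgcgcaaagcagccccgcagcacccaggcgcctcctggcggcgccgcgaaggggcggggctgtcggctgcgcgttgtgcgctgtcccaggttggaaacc

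The search covered 300 bases per start site, 250 before and 50 after it, on both strands. The interferon-stimulated response element core (GAAANNGAA) was present at 5 of the 9 start sites, those of HLA-F, B2M, TAP1, TAP2 and TAPBP, and in 8.11% of all 35116 promoters in the table. In B2M, TAP1 and TAPBP it occurred as overlapping copies. The kappa B consensus was matched at 5 start sites, belonging to HLA-B, HLA-C, B2M, TAP1 and TAPBP, against 11.3% of all promoters. The CCAAT box (CCAAT), the sequence read by NF-Y, was found at 6 start sites against 34.6% of all promoters. In HLA-B and HLA-C 1 CCAAT match lay 56 to 52 bases before the start, and in HLA-F 1 lay 57 to 53 bases before it. A gamma-activated site (TTCNNNGAA) was present only before the second start site of TAP1, against 7.66% of all promoters. The letters GGAATG, bound by TEAD factors, the DNA-binding partners of the LATS2 target YAP, were found at 1 of the 9 start sites, in a match that spans the start of B2M, against 14.0% of all promoters. The TAP1 and PSMB9 windows overlap at their far ends, since the genes stand head to head, and the CCAAT match of each window is the same stretch. These matches describe letters in fixed windows and not binding.

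**Figure D1:**
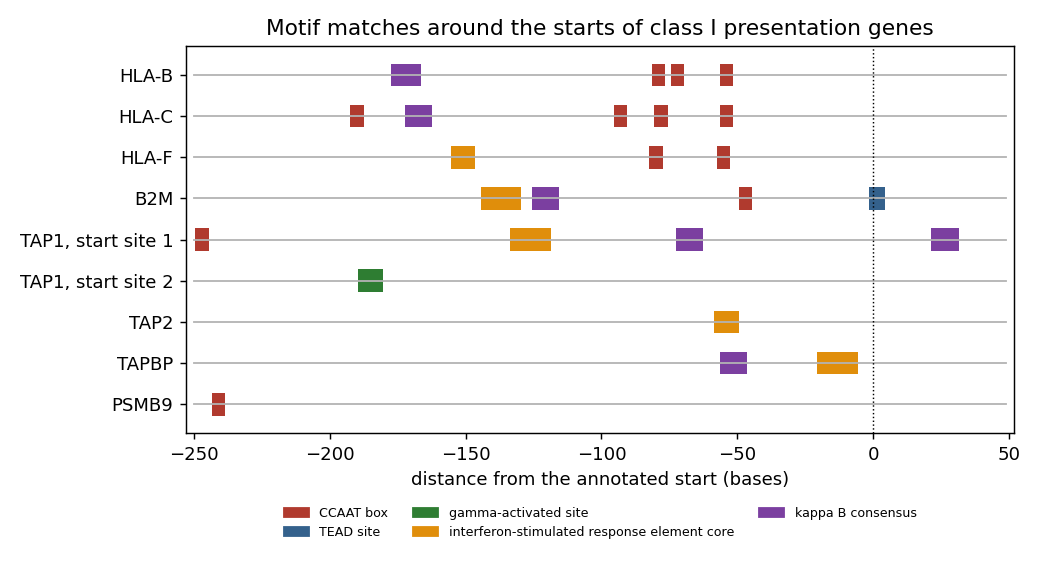
Motif matches around the 9 annotated start sites of 8 class I presentation genes. The horizontal axis is the distance from the start in bases, each grey line is 1 window of 300 bases, and each colored block is a match. The interferon-stimulated response element core appears on 5 lines and the TEAD site on the B2M line only.

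The labels were checked first. The LATS2 locus stood at 2.64 or 26.4 FPKM in the untreated group and at 53.1 or 531 FPKM in LATS2 OE, a log2 ratio of 4.33 and thus 20.1-fold higher with induction. The level is given as alternatives because the decimal point had been lost from most cells of at least 1 in the deposited table. It was restored so that both group values and their ratio matched, which fixes the ratio but often leaves the level undecided by powers of 10. The locus does not separate the construct from the endogenous gene.

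The class I presentation genes differed little between the groups. Of the 9 loci on the main chromosomes, 8 differed by less than 1.2-fold and 1, the second HLA-C locus, was more than 1.2-fold lower in LATS2 OE. Among the 11904 named loci that reached 1 FPKM in both groups, 12.0% differed by at least 1.2-fold, 5.79% higher and 6.22% lower in LATS2 OE. Among all 18478 named loci above 0 in both groups it was 29.6%. With 9 loci, a count of 1 is near the share seen in the table as a whole. The log2 ratio (LATS2 OE over untreated) was above 0 at 5 loci and below 0 at 4, with a median of 0.01, beside -0.00405 for the named loci of at least 1 FPKM and 0.00749 for all named loci. All 9 loci were at or above 1 FPKM in both groups. In RNA from a whole culture, fewer cells expressing a gene and less RNA per cell cannot be told apart.

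**Figure D2:**
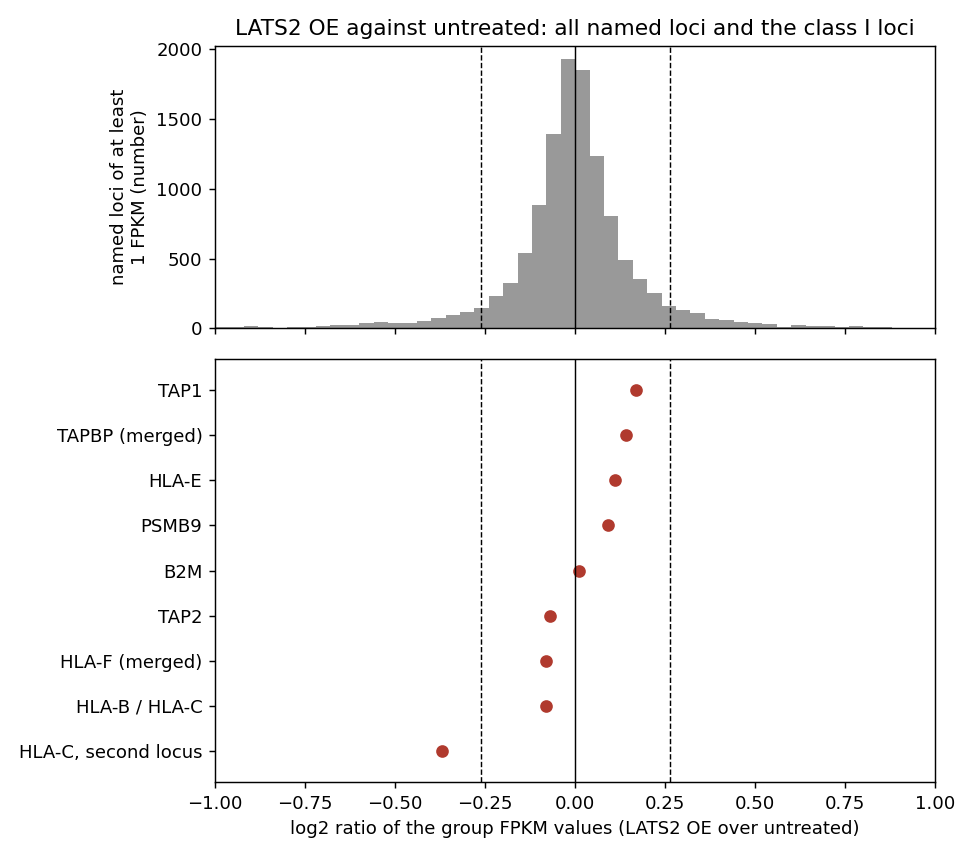
Log2 ratio of the group FPKM values, LATS2 OE over untreated. The upper panel counts, per bin, the 11904 named loci that reached 1 FPKM in both groups (loci beyond 1 in either direction are not drawn), and the lower panel shows each class I locus as a point. Dashed lines mark 1.2-fold, and only the second HLA-C locus, at -0.37, lies outside them.

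B2M, the light chain shared by all class I molecules, was the most abundant of these loci. The table places it on hg19 at chr15:45003685-45010357. It stood at 1612 FPKM in untreated podocytes and at 1626 FPKM in LATS2 OE, and both levels are settled. The log2 ratio was 0.01, a difference of 0.849%, and 89.9% of the named loci of at least 1 FPKM differed by at least as much. B2M ranked 29 among all loci by FPKM in the untreated group and 28 in LATS2 OE. Its level was 1.88 times the highest level possible for any other of the class I loci in the untreated group and 2.0 times that in LATS2 OE.

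The heavy chains HLA-B and HLA-C present peptides to cytotoxic T cells and also serve as ligands of inhibitory receptors on natural killer cells. The table merges them into 1 locus at chr6:31236526-31324989. It covers the HLA-C gene as GENCODE places it on hg19. It overlaps part of HLA-B as placed there, at chr6:31321649-31334844, an extent that other annotations need not share. Both genes are on the minus strand. The merged locus stood at 740.2 FPKM in the untreated group and at 699.9 FPKM in LATS2 OE, again with settled levels. It was 1.06-fold lower with induction (log2 ratio -0.08), and 45.9% of the named loci of at least 1 FPKM differed by at least as much. B2M exceeded it 2.18-fold in untreated podocytes and 2.32-fold in LATS2 OE on the FPKM scale, which is per exon length.

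A second locus named for HLA-C alone has the same interval, which the table gives to 2 other loci, the merged one among them. The value of the second locus was 11.2 or 112 FPKM in the untreated group and 8.64 or 86.4 FPKM in LATS2 OE. This was 1.29-fold lower with induction (log2 ratio -0.37). Of the named loci of at least 1 FPKM, 6.94% differed by at least as much. Its log2 ratio lay 0.29 below that of the merged locus, so the loci that carry the name HLA-C gave unequal differences. Even at its highest possible level it was 6.63-fold less abundant than the merged locus in the untreated group and 8.10-fold less in LATS2 OE. The table gives no strand for either locus, and the library kit does not mark strand. In the order of locus identifiers, the second locus falls between HLA-E and PSMB9, both on the plus strand. The merged locus comes later, shortly before the minus-strand genes TAP2, TAP1 and TAPBP. HLA-C is annotated on the minus strand, so the second locus may be an assembly on the opposite strand, which was not tested. Heavy chain genes are also near-identical over long stretches, so how reads were divided between these loci is uncertain.

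HLA-E and HLA-F are non-classical heavy chains. HLA-E presents leader peptides of other class I molecules to the CD94/NKG2 receptors of natural killer cells. Its locus at chr6:30457183-30461982 stood at 8.62 or 86.2 FPKM in the untreated group and at 9.30 or 93.0 FPKM in LATS2 OE, 1.08-fold higher with induction (log2 ratio 0.11). At its highest possible level it was still 8.59-fold below the HLA-B and HLA-C locus in untreated podocytes and 7.53-fold below it in LATS2 OE. HLA-F is part of a merged locus with 3 names, all of class I heavy chains, at chr6:29691117-30028961, so its own level is not resolved. The same interval is given to 9 other loci. The merged locus stood at 8.57, 85.7 or 857 FPKM in the untreated group and at 8.11, 81.1 or 811 FPKM in LATS2 OE, 1.06-fold lower with induction (log2 ratio -0.08). HLA-E thus lay above 0 on the log2 scale while both merged heavy chain loci lay below it, with all 3 inside 1.2-fold.

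TAP1 and TAP2 form the transporter that carries peptides into the endoplasmic reticulum. TAP1, at chr6:32808494-32821748, stood at 2.89, 28.9 or 289 FPKM in the untreated group and at 3.25, 32.5 or 325 FPKM in LATS2 OE. It was 1.13-fold higher with induction (log2 ratio 0.17), the largest difference in that direction among the 9 loci, and 21.7% of the named loci of at least 1 FPKM differed by at least as much. TAP2, at chr6:32789610-32806600, stood at 3.38, 33.8 or 338 FPKM in the untreated group and at 3.21, 32.1 or 321 FPKM in LATS2 OE, 1.05-fold lower (log2 ratio -0.07). The partners of the transporter therefore lay on opposite sides of 0, 0.24 apart on the log2 scale. The TAP1 interval is given in the table to 2 further loci, and the annotated PSMB9 gene reaches into it on the opposite strand.

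Tapasin bridges the transporter and the heavy chain. The table merges TAPBP with its neighbor ZBTB22, a zinc finger gene, at chr6:33267472-33285719. This locus stood at 6.67, 66.7 or 667 FPKM in the untreated group and at 7.33, 73.3 or 733 FPKM in LATS2 OE, 9.90% higher with induction (log2 ratio 0.14). PSMB9 replaces a constitutive catalytic subunit in the immunoproteasome and is inducible by interferon. It lies next to TAP1 at chr6:32821938-32827628, and stood at 2.99, 29.9 or 299 FPKM in untreated podocytes and at 3.18, 31.8 or 318 FPKM in LATS2 OE, 1.06-fold higher (log2 ratio 0.09). The adjacent genes TAP1 and PSMB9 were thus both higher in LATS2 OE, and neither reached 1.2-fold.

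Of the 9 loci, 8 lie on chromosome 6 between 29691117 and 33285719. This stretch held 85 other named loci that reached 1 FPKM in both groups, with a median log2 ratio of 0.0253. Of these, 4 were at least 1.2-fold higher in LATS2 OE and 0 at least 1.2-fold lower, 4.71% in all, beside 5.79% higher and 6.22% lower among all named loci at this level. The 4 were named after their values were seen: HLA-F-AS1 (log2 ratio 0.37), PSORS1C1 (0.34), HSPA1B (0.32) and IER3 (0.28). HLA-F-AS1 is an antisense gene with the same interval as the merged HLA-F locus, and without strand its reads cannot be told apart from those of the genes it overlaps.

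The remaining machinery of peptide loading and trimming, 8 genes, was at or above 1 FPKM in both groups, and all 8 differed by less than 1.2-fold (median log2 ratio -0.02). The chaperone HSPA5 had the largest difference at -0.13 on the log2 scale, followed by the tapasin homolog TAPBPL at -0.09 and the trimming peptidase ERAP2 at 0.08. CALR and PDIA3, the calreticulin and the thiol oxidoreductase of the peptide-loading complex, both had a log2 ratio of 0.01. The list of 9 proteasome catalytic subunits, activators and assembly factors gave a similar picture, with 9 of 9 within 1.2-fold and a median of -0.01. Its largest differences were those of the activators PSME3 (-0.11) and PSME4 (-0.05) and the assembly factor POMP (0.07), which was at 115 FPKM in untreated and 121 FPKM in LATS2 OE podocytes. PSMB5, a constitutive catalytic subunit, had a log2 ratio of -0.01, and PSMB10, an immunoproteasome subunit, one of 0.00. Of all named loci of at least 1 FPKM, 12.0% differed by at least 1.2-fold. In lists as short as these, no gene past 1.2-fold is near that share.

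Among 20 genes that regulate class I transcription, 19 were at or above 1 FPKM in both groups. Of these, 2 were at least 1.2-fold higher in LATS2 OE, 0 were at least 1.2-fold lower, and the median log2 ratio was 0.05. For all named loci of at least 1 FPKM the shares were 5.79% higher and 6.22% lower. The 2 genes were the interferon regulatory factors IRF1, a transcriptional activator, and IRF2. IRF1 stood at 1.1 or 11.0 FPKM in the untreated group and at 1.46 or 14.6 FPKM in LATS2 OE, 1.33-fold higher. IRF2 stood at 5.41, 54.1 or 541 FPKM and at 6.97, 69.7 or 697 FPKM, 1.29-fold higher with induction. NLRC5, the class I coactivator, was 1.14-fold higher (log2 ratio 0.20), and RFX5, which anchors it at the promoter, had a log2 ratio of 0.06. The one regulator below 1 FPKM in a group was SOCS1, an inhibitor of interferon signaling, at 0.924 FPKM in untreated and 2.33 FPKM in LATS2 OE podocytes, 2.52-fold higher. It was named after its value was seen. Of the 6574 named loci above 0 in both groups but below 1 FPKM in a group, 61.4% differed by at least 1.2-fold. At least 1.2-fold higher in LATS2 OE were 38.1%. These shares are for 1.2-fold, and how many of these loci differed as much as SOCS1 was not counted.

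Among interferon-induced genes, those that passed 1.2-fold were all higher in LATS2 OE. Of 12 genes, 11 were at or above 1 FPKM in both groups, 3 of them at least 1.2-fold higher and 0 at least 1.2-fold lower. Their median log2 ratio was 0.17. For all named loci of at least 1 FPKM the shares were 5.79% higher and 6.22% lower, with a median of -0.00405. The 3 genes belong to the IFIT family, which binds viral RNA, and follow one another in the order of these named loci. IFIT2 stood at 1.11, 11.1 or 111 FPKM in the untreated group and at 1.49, 14.9 or 149 FPKM in LATS2 OE, a log2 ratio of 0.43. IFIT1 and IFIT3 both had a log2 ratio of 0.38. GBP2, a guanylate-binding protein, was the one gene below 1 FPKM, at 0.297 and 0.585 FPKM. It too was named after its value was seen.

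**Figure D3:**
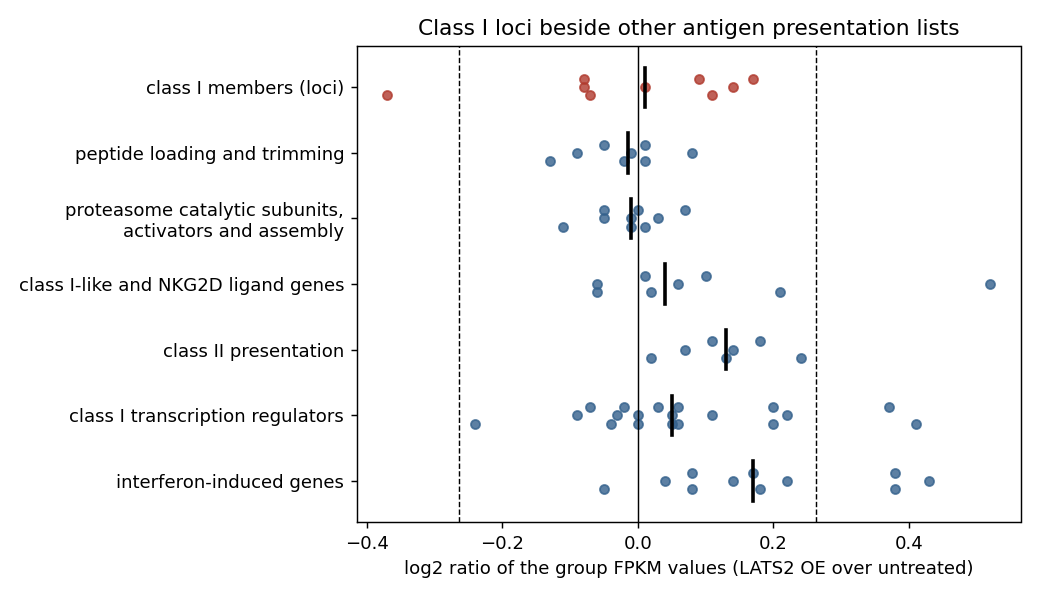
Log2 ratio of the group FPKM values, LATS2 OE over untreated, for the 9 class I loci (red) and for the genes of 6 other lists at or above 1 FPKM in both groups (blue, 1 point per gene). Black bars are medians and dashed lines mark 1.2-fold. The class I median lies at 0.01, the peptide loading and trimming median at -0.02 and the interferon-induced median at 0.17.

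Genes related to class I by structure or as ligands of the activating receptor NKG2D were 14, of which HLA-G belongs to the merged HLA-F locus. Of the others, 8 were at or above 1 FPKM in both groups, with 1 at least 1.2-fold higher, 0 at least 1.2-fold lower and a median log2 ratio of 0.04. For all named loci of at least 1 FPKM the shares were 5.79% higher and 6.22% lower. The 1 gene past 1.2-fold was ULBP3, an NKG2D ligand. It stood at 4.42, 44.2 or 442 FPKM in untreated and 6.36, 63.6 or 636 FPKM in LATS2 OE podocytes, 1.44-fold higher. MR1, which presents vitamin B metabolites, had a log2 ratio of 0.21, and HFE, a regulator of iron uptake, one of 0.10. The remaining 5, RAET1L, RAET1E, RAET1G, CD1D and ULBP1, were below 1 FPKM and were each at least 1.2-fold higher in LATS2 OE, with folds from 1.36 for ULBP1 to 2.62 for RAET1L, where 38.1% of all named loci at such low levels were at least 1.2-fold higher. The highest of these levels was 0.650 FPKM, for ULBP1 in LATS2 OE.

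Class II genes, which present peptides to helper T cells, were partly at or near 0. Of 14 genes, 7 were at or above 1 FPKM in both groups, all within 1.2-fold, with a median log2 ratio of 0.13. Of all named loci of at least 1 FPKM, 12.0% differed by at least 1.2-fold, so this count is near that share. The largest differences among the 7 were those of HLA-DMA, a peptide exchange factor (0.24), IFI30, a lysosomal thiol reductase (0.18), and HLA-DPB1 (0.14). CD74, the invariant chain, had a log2 ratio of 0.07. The class II transactivator CIITA stood at 0.00378 FPKM in the untreated group and 0.0102 FPKM in LATS2 OE. HLA-DRA stood at 0.00436 and 0.00424 FPKM, and HLA-DQA1 and HLA-DQB1 were listed at 0 in both groups.

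The labelled cell type was checked against its markers. Of 12 leukocyte markers, all were below 1 FPKM in both groups and 2, CD2 and TYROBP, were listed at 0 in both, with a summed level of 0.892 FPKM in untreated and 0.967 FPKM in LATS2 OE podocytes. PTPRC, the common leukocyte antigen, stood at 0.00234 and 0.00360 FPKM. Of 12 podocyte markers, 5 were at or above 1 FPKM in both groups, with a median log2 ratio of -0.08. Of the 5, 1, PODXL, was at least 1.2-fold higher in LATS2 OE (log2 ratio 0.29) and 0 were at least 1.2-fold lower. For all named loci of at least 1 FPKM the shares were 5.79% higher and 6.22% lower. CD2AP had a log2 ratio of -0.16 and KIRREL one of -0.15. NPHS1, which encodes the slit diaphragm protein nephrin, stood at 0.00875 FPKM in the untreated group and at 0.00616 FPKM in LATS2 OE. WT1, a transcription factor of podocytes, stood at 0.413 and 0.412 FPKM. These defining podocyte markers were thus below 1 FPKM in both groups.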

How the data were processed

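RNA was isolated from 8 samples of the AB8/13 podocyte line, 4 LATS2 OE and 4 untreated, grouped by their labels, and poly(A) libraries were made with a kit that does not mark strand. Per the labels and the methods, the authors used Trimmomatic (version 0.33) on the single reads, TopHat for the alignment to hg19 and the Cufflinks package for FPKM values. For TopHat, Cufflinks and the annotation no version is given in the sources used here. The authors deposited 1 pooled FPKM value per group and locus. No source says that the 4 samples of either group were separate cultures. The deposited table also holds columns of the authors' own comparison, with a log2 ratio, its statistic, p-value, q-value and a call. None of these was used as a result. The deposited log2 ratio, whose cells hold a damaged number and were handled as a score, served only to put back decimal points lost from cells of at least 1. Both FPKM values and this ratio had to match within 0.002, which gave 1 ratio for 20626 of 20636 loci above 0 in both groups, and 11748 of these kept more than 1 possible level. The step was also run on simulated pairs damaged by the same rule that it assumes. That run checks the code only and cannot show how the deposited cells were damaged.

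Log2 ratios were then computed from the restored values with Python (version 3.11.15), with no pseudocount. A locus counted as different where the higher group value was at least 1.2 times the lower. Loci with several gene names were kept, and levels were called low under 1 FPKM. With 1 value per group no error, interval or test could be given. Named genes were the 9 genes, LATS2, the 3 genes of each list with the largest absolute log2 ratio among those of at least 1 FPKM, and 12 genes fixed by name. A few genes that this rule or the lists hold are not reported here by name. The genes and lists were chosen from textbook knowledge with earlier results of these data known. Hg19 annotation came from GENCODE and promoters from RefSeq.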

Additional observations from a re-analysis of the deposited data

How the results depend on the processing

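For single class I loci, 36 alternative log2 ratios were computed. The settings were decimal points placed at the nearest pair of group values and pseudocounts of 0.1 and 1 FPKM at the lowest possible level. A further setting was centring on the median of the named loci of at least 1 FPKM. All 36 stayed on the same side of 0 and moved by at most 0.04. An equal pseudocount cannot carry a ratio across 0, and the median used for centring was only -0.00405. Pseudocounts and centring therefore put the direction of the differences to no test. At a threshold of 1.1-fold, 1 locus, TAP1, was higher in LATS2 OE in place of 0, and 27.9% of the named loci of at least 1 FPKM passed. The TAPBP locus, 9.90% higher, fell just short of it. At 1.5-fold the number of loci lower in LATS2 OE dropped from 1 to 0, and 2.95% passed. The other alternatives left both counts as they were, and the median log2 ratio ranged from 0.01 to 0.05, the latter also without the second HLA-C locus, an alternative chosen after seeing the data. The decimal point placed at the nearest pair gave another ratio for 26 of the 11904 named loci. No paired analysis was possible because the table holds 1 pooled value per group, and for the same reason leaving out a sample was not possible. The merged loci limit what can be said of HLA-B, HLA-C, HLA-F and TAPBP singly, and the spread between samples, needed to judge a difference of 1.29-fold, is unknown.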
